A study of Mus musculus with 6 samples.

Results

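Muscle-derived stem cells (MDSC) of Mstn-null mice were compared with W4 mouse embryonic stem cells (ESC) across every gene on the array, using the 2 arrays labelled for each kind of cell, 4 of the 6 arrays of the study. Of the features on the array, 24377 genes and unnamed transcripts were bright enough to be tested, 15212 of them with a gene symbol. The MDSC were the slowest-adhering cells of collagenase-digested hindlimb muscle from 5-week-old male mice. They were expanded in serum-containing medium, taken at passage 1, and came from 2 isolations. W4, an established male ESC line, was taken at passages 12 and 15, so its arrays are passages of 1 line and their spread may be smaller than that between lines. The line was grown on inactivated mouse embryonic fibroblasts, which a plating step of 20 min served to remove, although the labels call the colonies feeder free. Neither kind of cell was treated, and wild-type MDSC, hybridised on another slide, were the remaining group of the study. The question set by the study was how the potency of MDSC can be read from gene expression. The allele of the Mstn-null mice, their strain and any pooling of animals are not given in the sources used here.

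Myostatin, the product of Mstn, is a secreted member of the TGF-beta family that restrains muscle growth and signals through the activin type II receptors. Embryonic stem cells hold a transcription factor network around Pou5f1, Sox2, Esrrb and their partners, divide rapidly, and grow as epithelial colonies. Cells that adhere late from digested muscle are enriched for myogenic progenitors but can include fibroblastic, vascular and blood-derived cells.

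Values are log2 signals relative to the 75th percentile of the same array, so 0 marks that percentile and each unit is 1 doubling. Of 59305 non-control spots per array, 55.0% and 53.3% were well above background on the Mstn-null MDSC arrays and 64.6% and 57.2% on the ESC arrays, and none was saturated. Across genes the MDSC arrays correlated with each other at r = 0.987 and the ESC arrays at 0.977, against 0.795 to 0.822 between the groups; these correlations run across genes, which are no independent replicates, and serve as a description. All 4 arrays lay on 1 slide, with the ESC in one row and the MDSC in the other, and row and group cannot be told apart. Macrophage markers stood apart between the MDSC arrays: 29 of the 31 tested were higher in isolation 2, by a median of 2.09. Fibroblast markers stood apart between the ESC arrays: 25 of the 29 tested were higher at passage 12, by a median of 1.01. Over all 24377 features, isolation 2 was the higher MDSC array in 10233 (median difference -0.05). Passage 12 was the higher ESC array in 10616 (median difference -0.06). Of the genes given below with a difference or adjusted p, Ctss, Cxcl1, Fmod, Gdf11, Hgf, Lgr5, Lum, Lyz2, Myl1, Tbx5 and Tyrobp were well above background on only 1 of the 2 ESC arrays, and Krt18 and Slc38a4 on only 1 of the 2 MDSC arrays, so their differences rest in part on a reading at background. In a bulk sample, fewer cells of a type and less RNA per cell cannot be told apart. When all 6 arrays were fitted with limma, 0 of 24375 genes differed between Mstn-null and wild-type MDSC at an adjusted p of 0.05, although 3290 had an unadjusted p below 0.05, so nothing below is shown to be particular to the Mstn-null genotype.

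Mstn itself was read at -3.06 and -2.47 on the Mstn-null MDSC arrays and at -7.23 and -6.85 on the ESC arrays. Its probe was well above background on both MDSC arrays and on neither ESC array, which puts Mstn at least 5.01-fold higher in the MDSC (limma, Benjamini-Hochberg adjusted p = 0.00225). As for every such fold below, that p tests the difference of the values as read, not the bound. Whether that probe lies inside the deleted part is not given, so the reading does not check the genotype.

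Across all tested features, 5592 (22.9%) were higher and 7472 (30.7%) lower in Mstn-null MDSC than in ESC at an adjusted p of 0.05 (limma with empirical Bayes, two-sided, Benjamini-Hochberg over all tested features). Together 53.6% were called, and the median difference over all features was -0.15, so any group of genes has to be read against a background in which over 1 in 2 features differed. Differences of at least 2-fold made up 4482 of the higher and 5848 of the lower calls. Among all tested features, called or not, 564 (2.31%) were well above background on both MDSC arrays and on neither ESC array, and 2085 (8.55%) the other way round. Fewer features were called with either MDSC isolation left out, in fits whose spread within groups comes from the ESC arrays alone. Centring the arrays on their medians shifted the median of all features by 0.23 and turned the balance to 5791 higher and 5291 lower calls, so that 52.3% of the calls were higher instead of 42.8%.

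**Figure D1:**
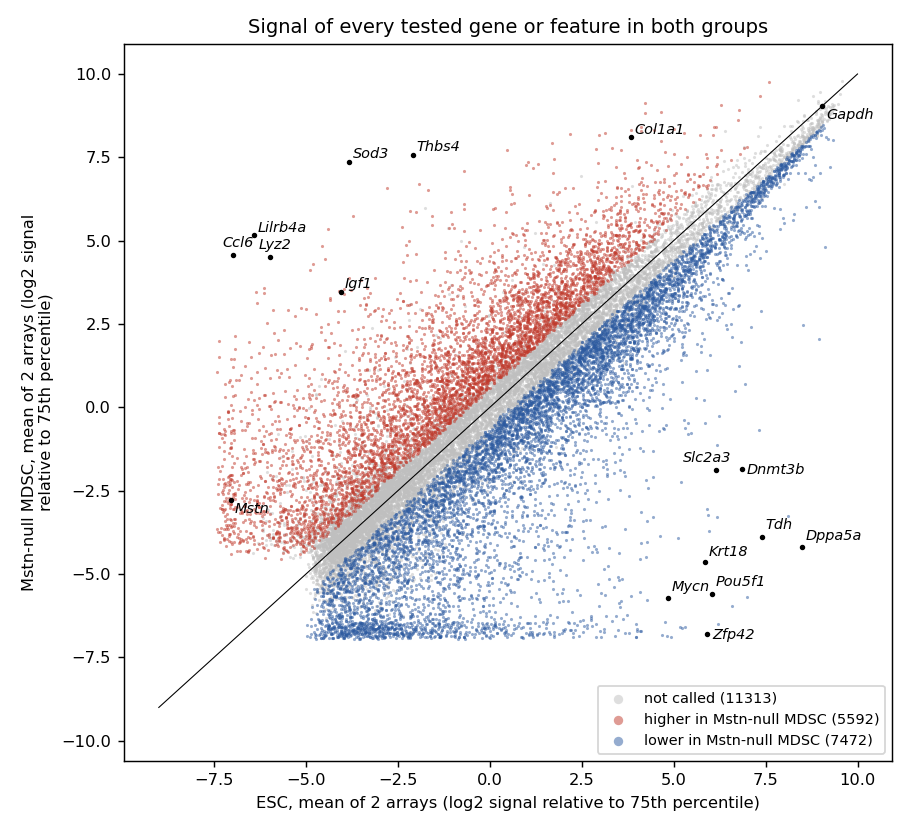
Mean log2 signal of the 24377 tested features in ESC (horizontal axis) and Mstn-null MDSC (vertical axis), 2 arrays per group, relative to each array's 75th percentile; red points were higher in MDSC (5592), blue points lower (7472) and grey points not called (11313). Pluripotency genes lie at the lower right and secreted and myeloid genes at the upper left, while Gapdh lies on the line of equal signal.

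Among genes measured above background on all 4 arrays, the largest rise was that of Sod3, the secreted superoxide dismutase. Sod3 was read at 7.16 and 7.58 in the Mstn-null MDSC and at -3.05 and -4.61 in the ESC, a difference of 11.20 ± 0.59 (SE, 2 arrays per group; limma adjusted p = 0.00163). The MDSC arrays lay far above both ESC arrays. Absence of overlap was required by the naming rule and held for 82.3% of all tested features. On the passage 15 array the lowest signal called well above background was -4.89, so Sod3 was read near that limit there. Thbs4, a thrombospondin of tendon and muscle matrix, followed with 9.67 ± 0.48 (adjusted p = 0.00153). The other 13 of the 15 largest rises were Lyz1 (9.38), Cck (8.63), Cxcl5 (8.19), Ptx3 (8.07), Ccn5 (7.86), Il6 (7.79), Cxcl14 (7.79), Ccl8 (7.73), Igf1 (7.52), Mpeg1 (7.52), Ms4a7 (7.39), Comp (7.31) and Trem2 (7.30). Of these, Igf1 (-4.58), Trem2 (-4.51) and Ccl8 (-4.35) were also read near the limit of -4.89 on the passage 15 array. Lyz1 has a near-identical copy in Lyz2, and the probes may read both. Cck encodes the peptide hormone cholecystokinin, and its 6.39 and 7.02 in MDSC stood against -3.21 and -0.65 in ESC. For Cxcl5 the ESC arrays stood far apart, at 0.87 and -4.21, against 6.67 and 6.37 in MDSC. For Ptx3 the ESC arrays stood at -0.23 and -4.13, against 6.34 and 5.45 in MDSC. Neither call held with an MDSC isolation left out, where the spread within groups comes from the ESC arrays alone.

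The largest fall was that of Dppa5a, an RNA-binding protein of pluripotent cells. It was read at -4.20 and -4.16 in the MDSC and at 8.37 and 8.59 in the ESC. The difference was -12.66 ± 0.17 (SE, limma adjusted p = 0.000803). The lowest signals called well above background on the MDSC arrays were -4.66 and -5.17. The size of this fall thus rests on MDSC readings near that limit, and Tdh and Igf2bp1 also came near it in isolation 1. Tdh, the threonine dehydrogenase that feeds one-carbon metabolism in mouse ESC, differed by -11.30 ± 0.26 (adjusted p = 0.000862). Rhox5 (-9.48), Esrrb (-9.15), Fbxo15 (-9.05), Trh (-8.95), Dnmt3b (-8.69), Igf2bp1 (-8.49), Slc2a3 (-8.04), Bex1 (-8.00), Zfp985 (-7.72), Zfp979 (-7.69), Slc7a3 (-7.46), Hsd17b14 (-7.33) and Car2 (-7.26) made up the rest of the 15. Trh encodes the precursor of thyrotropin-releasing hormone and Slc7a3 a cationic amino acid transporter. Zfp985 and Zfp979 belong to a family of near-identical zinc finger genes, and their probes may share signal from related members.

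**Figure D2:**
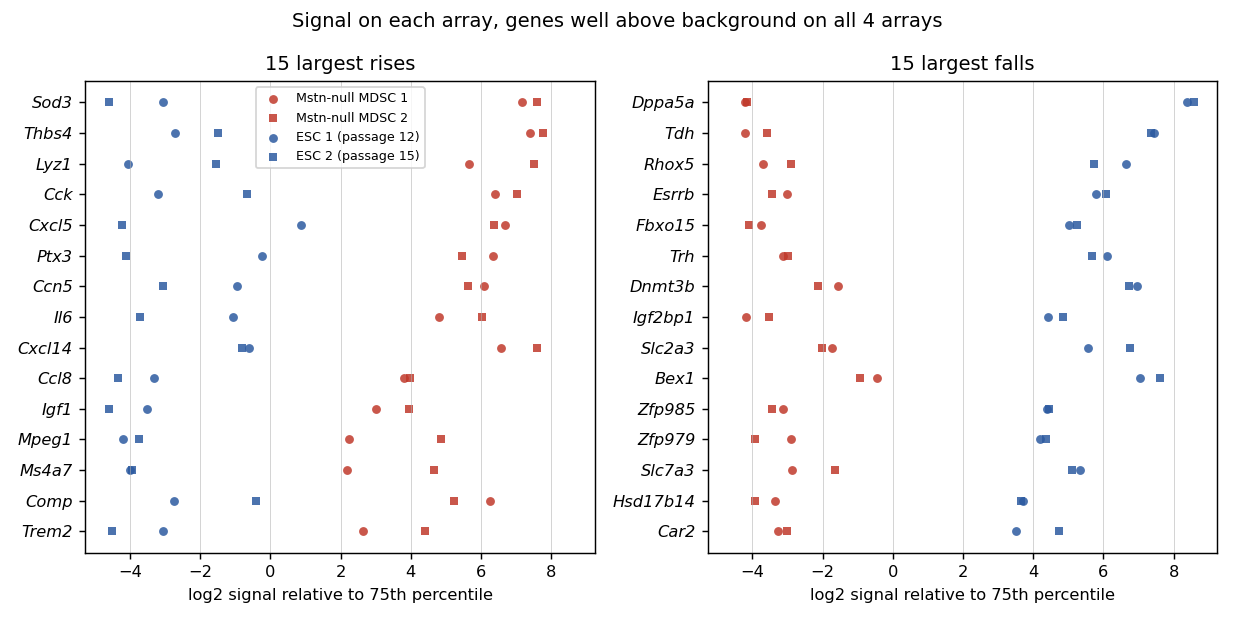
Log2 signal on each of the 4 arrays, relative to the 75th percentile, for the 15 largest rises (left) and 15 largest falls (right) among genes above background on all arrays; red marks are Mstn-null MDSC, blue marks ESC. Their groups do not overlap, which the rule required and which held for 82.3% of all tested features; Cxcl5 at passage 12 (0.87) and at passage 15 (-4.21) shows the widest gap between ESC arrays.

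Genes above background in only one kind of cell were ranked by their bounds. The 10 largest bounds for MDSC were Lilrb4a, an inhibitory myeloid receptor (at least 1215-fold), Ccl6 (802-fold), Clec4d (407-fold), Wfdc17 (376-fold), Ccl4 (366-fold), Ccl11 (298-fold), Plek (260-fold), Ccl12 (259-fold), C1qc (195-fold) and Esm1 (164-fold). Esm1 is an endothelial proteoglycan and Ccl11 an eosinophil-attracting chemokine of stromal cells; the other 8 are best known in myeloid cells. C1qc had an adjusted p of 0.0125, and of 0.0541 without the passage 12 array. The 10 largest bounds for ESC included L1td1 (at least 2912-fold), Pou5f1 (1994-fold), Zfp42 (1813-fold), Bex4 (1197-fold), Fgf4 (1132-fold), Tex19.1 (915-fold), Mycn (873-fold), Pou5f1-rs4 (782-fold) and Trim71 (579-fold). Pou5f1-rs4 is a copy of Pou5f1, so the probes may read the same transcript. Limma's adjusted p ranged from 0.000803 to 0.00235 over these 10.

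Of 40 pluripotency factors tested, 37 fell and none rose, against 30.7% of all features lower and 22.9% higher. The median difference was -7.49, or -6.79 with genes below background in MDSC set at their bounds. Pou5f1, the central POU factor of the network, was read at -6.03 and -5.19 in the MDSC against 5.94 and 6.16 in the ESC. Sox2, its partner, was at least 350-fold lower in MDSC (adjusted p = 0.000803), and the nuclear receptor Esrrb lay at -3.01 and -3.44 against 5.80 and 6.06. Both MDSC arrays were below both ESC arrays for each of them, but the groups did not overlap in 82.3% of all tested features. For Pou5f1 and Esrrb the naming rule also required it. Lin28a, an RNA-binding inhibitor of let-7 maturation, differed by -5.31 ± 0.17 (adjusted p = 0.000997). The 3 that were not called were Nanog, Klf4 and Sall4. Nanog, a core homeodomain factor listed as an ESC marker, went against the others: its single probe gave -0.20 and -0.15 in the MDSC and -0.77 and -0.66 in the ESC, a difference of 0.54 ± 0.16 (limma adjusted p = 0.0534). The arrays therefore did not separate the cells by Nanog in the direction of the label, unlike by Pou5f1, Sox2, Esrrb and Zfp42. Klf4, a factor shared by pluripotent and differentiated cells, differed by 0.07 ± 0.36 (adjusted p = 0.877).

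Germ line genes showed the same direction, with 29 of 31 lower in MDSC, none higher and a median of -4.89 (-4.87 with bounds). Of the 31, 19 were above background in ESC alone. The shares over all features were 30.7% lower, 22.9% higher and 8.55% above background in ESC alone. Tex19.1, which restrains transposons in germ cells, and Rhox5, a homeobox gene of the X chromosome, were the largest. Ddx4, the germ cell RNA helicase, was read at 0.59 and 1.47 in ESC and was at least 61.6-fold lower in MDSC (adjusted p = 0.00141). Sycp3, a component of the meiotic chromosome axis, was read at 0.44 and 0.88 in ESC and was at least 43.4-fold lower in MDSC (adjusted p = 0.00118). The word CACGTG (an E-box, the same on both strands) was sought in promoter windows. It was present in 11 of 28 listed germ line genes with a window, 39.3%, against 8.1% of all 27025 genes with a window. These were counted whether tested or not, and Tdrd1, which holds the word, was not tested. Windows ran from 250 bases upstream to 50 bases downstream of the start site, and a match describes the letters only. The upstream 250 bases of these 2 genes, from RefSeq's GRCm38.p6, are shown because they carry the word near the start site, 5′ to 3′ on the gene's strand with the E-box in capitals, for Ddx4 at chr13:112652311-112652560 (minus strand) and Sycp3 at chr10:88459337-88459586 (plus strand).
Ddx4: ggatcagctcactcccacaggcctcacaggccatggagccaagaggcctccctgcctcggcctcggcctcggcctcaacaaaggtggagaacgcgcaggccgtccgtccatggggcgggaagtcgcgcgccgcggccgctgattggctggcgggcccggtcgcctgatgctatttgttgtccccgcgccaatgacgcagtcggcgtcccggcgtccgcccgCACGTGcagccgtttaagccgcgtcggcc
Sycp3: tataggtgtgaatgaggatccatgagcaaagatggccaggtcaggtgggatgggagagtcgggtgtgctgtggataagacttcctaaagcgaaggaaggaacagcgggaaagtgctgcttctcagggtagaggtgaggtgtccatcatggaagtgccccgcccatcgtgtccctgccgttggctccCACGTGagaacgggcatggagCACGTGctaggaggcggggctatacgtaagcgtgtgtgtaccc
The window of Sycp3 holds the word more than once, and that of Ddx4 holds it close to the start.

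The DNA methyltransferases Dnmt3b and Dnmt1 were lower in MDSC, while the methyl-CpG binding proteins Mbd1 and Mbd2 were higher. In the list of 21 methylation genes, 10 fell and 6 rose, against 30.7% and 22.9% of all features, with a median of -1.11. Dnmt3b, a de novo methyltransferase, was read at -1.57 and -2.12 in MDSC and at 6.95 and 6.74 in ESC (difference -8.69 ± 0.26, adjusted p = 0.000938). Its cofactor Dnmt3l differed by -5.34 ± 0.18 (adjusted p = 0.00102), and the maintenance pair Uhrf1 and Dnmt1 by -3.56 ± 0.17 and -1.85 ± 0.17 (adjusted p = 0.00147 and 0.0037). Dnmt3a was not called (-1.14 ± 0.40, adjusted p = 0.075). The largest rises were those of Apobec1, a cytidine deaminase of RNA (2.57 ± 0.40, adjusted p = 0.0106), and Mbd2, a methyl-CpG binding protein (2.15 ± 0.24, adjusted p = 0.00493). Without isolation 2 only 3 of the rises passed, Apobec1 and Mbd2 among them.

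Subunits of chromatin complexes went both ways. Over all features, 22.9% were higher and 30.7% lower, and the share of rises here was close to the former. Of 37 polycomb and remodelling genes, 20 fell and 8 rose (5 without isolation 1, 5 without isolation 2), with a median of -0.78. Cbx7, the polycomb chromobox protein typical of ESC, was at least 12.2-fold lower in MDSC (adjusted p = 0.00421), whereas Cbx8 rose by 2.29 ± 0.25 (adjusted p = 0.00491). Ezh2, the H3K27 methyltransferase, differed by -3.12 ± 0.25 (adjusted p = 0.00275), with 0.40 and -0.13 in MDSC and 3.32 and 3.19 in ESC. Jarid2 and Phc1, further polycomb partners, differed by -4.43 ± 0.18 and -4.59 ± 0.25 (adjusted p = 0.00122 and 0.0017). The remodelling ATPase Smarca2 rose by 3.86 ± 0.85 (adjusted p = 0.0244) and its paralogue Smarca4 differed by -0.75 ± 0.16 (adjusted p = 0.0222), but neither call held without isolation 1 (0.0834 and 0.119) or isolation 2 (0.0871 and 0.135). Among 15 telomere genes, 11 fell (7 without isolation 2) and none rose, at a median of -1.73 (-1.43 with bounds), with Rif1 at -4.72 ± 0.16 and the shelterin protein Terf1 at -4.27 ± 0.30 (adjusted p = 0.00105 and 0.00234).

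Of 30 RNA regulators of cell state, 16 fell and 5 rose (3 without isolation 1), with a median of -0.94. Trim71, Lin28b (at least 241-fold) and Igf2bp1, which act in the let-7 pathway or bind fetal mRNAs, were lower in MDSC, and the splicing regulator Mbnl1 rose by 4.56 ± 0.34 (adjusted p = 0.00254). Of 22 imprinted genes, 10 fell and 3 rose, at a median of -1.99 (-1.66 with bounds). The counts of both lists stand against 30.7% of all features lower and 22.9% higher. Phlda2, a placental growth restrainer, was at least 83.4-fold lower in MDSC (adjusted p = 0.000803), and Slc38a4, an amino acid transporter, differed by -7.09 ± 0.37 (adjusted p = 0.00164). H19 was not called: it was read at 2.82 and 2.05 in MDSC and at 5.26 and 2.14 in ESC, where the passages differed more than the groups (adjusted p = 0.39).

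Genes of cell division were lower in MDSC almost throughout. In DNA replication 38 of 40 fell (median -2.48), in mitosis 39 of 40 (median -2.55) and in homologous recombination and mismatch repair 28 of 29 (median -2.88), with no rise in any of them, against 30.7% of all features lower. Mcm5, a subunit of the replicative helicase, was read at 1.66 and 1.66 in MDSC and at 5.29 and 5.30 in ESC (difference -3.64 ± 0.16, adjusted p = 0.00131). Mcm7 and Mcm6, of the same ring, differed by -3.17 ± 0.17 and -2.46 ± 0.16 (adjusted p = 0.00168 and 0.00217). Espl1, the separase that cleaves cohesin at anaphase, was read at -1.15 and -1.42 in MDSC and 2.59 and 2.48 in ESC (difference -3.82 ± 0.19, adjusted p = 0.00153). Cdc20, an activator of the anaphase-promoting complex, differed by -3.31 ± 0.50 (adjusted p = 0.00964), with 3.73 and 2.44 in the MDSC isolations. Between the MDSC arrays, isolation 2 was the higher one in only 2 of the 40 mitotic genes, with a median difference from isolation 1 of -0.68. Over all 24377 features it was the higher one in 10233, with a median difference of -0.05. The members not called were Tyms and Rrm2, which supply nucleotides, the phosphatase Cdc25b, and the checkpoint kinase Chek1.

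The windows of the listed division genes, tested or not, differed in their words. TTTCCCGC or TTTGGCGC, 2 forms of the E2F motif read on both strands, stood in 10 of 31 replication genes with a window (32.3%) against 1.8% of all genes, in 9.1% of mitotic genes and in 10.7% of germ line genes. TTTGAA, the cell cycle homology element read on both strands, stood in 22 of 33 mitotic genes (66.7%) against 20.2% of all genes, 19.4% of replication genes and 3.6% of germ line genes. Shown as examples, with the matched letters in capitals on the gene's strand and 250 upstream bases each from GRCm38.p6, are Mcm5 at chr8:75109259-75109508 (plus strand), Mcm6 at chr1:128359706-128359955 (minus strand), Mcm7 at chr5:138171884-138172133 (minus strand), Espl1 at chr15:102296043-102296292 (plus strand) and Cdc20 at chr4:118437344-118437593 (minus strand).
Mcm5: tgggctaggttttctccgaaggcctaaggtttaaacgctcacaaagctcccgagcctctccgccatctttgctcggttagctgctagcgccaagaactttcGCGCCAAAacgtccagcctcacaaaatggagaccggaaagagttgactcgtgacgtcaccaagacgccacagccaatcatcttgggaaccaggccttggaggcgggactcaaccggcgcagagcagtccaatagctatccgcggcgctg
Mcm6: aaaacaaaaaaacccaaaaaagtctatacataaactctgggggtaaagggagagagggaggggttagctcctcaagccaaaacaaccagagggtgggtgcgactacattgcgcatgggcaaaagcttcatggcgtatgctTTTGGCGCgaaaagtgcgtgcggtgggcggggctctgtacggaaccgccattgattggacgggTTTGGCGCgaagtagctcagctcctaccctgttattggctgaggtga
Mcm7: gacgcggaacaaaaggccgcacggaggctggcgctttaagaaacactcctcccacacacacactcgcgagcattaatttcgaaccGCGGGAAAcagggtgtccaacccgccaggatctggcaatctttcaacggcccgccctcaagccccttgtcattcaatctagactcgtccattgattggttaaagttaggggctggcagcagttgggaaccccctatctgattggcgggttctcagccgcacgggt
Espl1: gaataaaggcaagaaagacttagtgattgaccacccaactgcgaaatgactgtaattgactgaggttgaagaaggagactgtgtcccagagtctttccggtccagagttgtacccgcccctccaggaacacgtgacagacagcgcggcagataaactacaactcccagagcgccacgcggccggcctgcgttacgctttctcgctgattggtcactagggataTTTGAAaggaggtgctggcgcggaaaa
Cdc20: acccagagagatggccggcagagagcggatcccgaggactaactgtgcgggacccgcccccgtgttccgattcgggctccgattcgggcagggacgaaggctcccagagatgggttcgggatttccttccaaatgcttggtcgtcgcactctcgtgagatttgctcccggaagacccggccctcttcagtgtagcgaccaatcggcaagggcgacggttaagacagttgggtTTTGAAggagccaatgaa
In Mcm5 and Mcm7 the capitals are the reverse complement of the motif, and Mcm6 carries it more than once. These matches describe the letters, not binding.

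Inhibitors of the cell cycle moved the other way in part: 14 of 25 rose and 4 fell, at a median of 1.11, with 8 rises without isolation 1 and 6 rises and 2 falls without isolation 2. Cdkn2c and Cdkn1a, inhibitors of cyclin-dependent kinases, rose by 4.45 ± 0.69 and 1.93 ± 0.26 (adjusted p = 0.0103 and 0.00717). Cdkn2a, the Ink4a and Arf locus, was read at 4.59 and 5.52 in MDSC and at 0.85 and 3.01 in ESC (adjusted p = 0.0403, and 0.0797 and 0.146 without isolation 1 and 2). Cdkn1c, an imprinted inhibitor, fell by 4.13 (adjusted p = 0.00708). Of 29 ribosome biogenesis and Myc family genes, 24 fell and 2 rose, with a median of -2.22. The counts of this list and of the inhibitors stand against 22.9% of all features higher and 30.7% lower. Mycn, in the list, was at -4.69 and -6.73 in MDSC and at 4.87 and 4.84 in ESC, whereas Myc was read at 2.10 and 2.04 against 1.29 and 2.35 (adjusted p = 0.628), so the groups overlapped for Myc and not for Mycn. Across all tested features the groups did not overlap in 82.3%. Mxd4, a partner of Max that opposes Myc, rose by 3.41 ± 0.28 (adjusted p = 0.00295).

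Medians of the 4 metabolic lists lay between -0.75 and 0.64, although single members differed far more. Their counts stand against 22.9% of all features higher and 30.7% lower. Of 35 genes of one-carbon metabolism, glycolysis and glucose transport, 17 fell and 2 rose (1 without either isolation), with a median of -0.75; the falls numbered 8 without isolation 1 and 11 without the passage 15 array. Beside Tdh, Gldc of the glycine cleavage system differed by -6.71 ± 0.51 (adjusted p = 0.00263). The glucose transporter Slc2a3 was read at -1.74 and -2.03 in MDSC and at 5.56 and 6.75 in ESC (adjusted p = 0.00174). Gapdh, a glycolytic enzyme, was at 8.92 and 9.17 in MDSC and at 8.95 and 9.14 in ESC. Of 30 respiratory genes 14 fell and 2 rose, at a median of -0.50, but only 2 falls passed without isolation 1, 2 without isolation 2 and 3 without the passage 15 array. Cox6a2, a muscle form of a cytochrome oxidase subunit, rose by 3.19 ± 0.48 (adjusted p = 0.00966). Of 30 cholesterol genes 12 fell (6 and 4 without isolation 1 and 2) and 5 rose (3 without isolation 2), at a median of -0.60, led by Apoe, a lipid carrier, at -3.74 ± 0.36 (adjusted p = 0.00378). Of 27 antioxidant genes 11 rose and 4 fell (2, 1 and 2 falls without isolation 1, isolation 2 and passage 15), with a median of 0.64, and Sod3 stood far beyond the others.

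Epithelial genes were lower and mesenchymal genes higher in MDSC, against 30.7% of all features lower and 22.9% higher. Of 30 epithelial adhesion and filament genes 24 fell and 1 rose, at a median of -4.26 (-3.99 with bounds). Krt18, a simple epithelial keratin, was read at -5.06 and -4.24 in MDSC and at 4.85 and 6.87 in ESC (difference -10.51 ± 0.78, adjusted p = 0.00253), and was well above background on only 1 of the 2 MDSC arrays. Its partner Krt8 was at least 303-fold and the adhesion molecule Epcam at least 174-fold lower in MDSC (adjusted p = 0.00249 and 0.000862). The single rise was that of the desmosomal gene Pkp3 (1.32 ± 0.17, adjusted p = 0.00641, and 0.0523 without isolation 2). Of 30 mesenchymal genes 28 rose and none fell, with a median of 2.57. S100a4, a calcium-binding protein of fibroblasts, rose by 4.59 ± 0.65, the cadherin Cdh11 by 3.91 ± 0.56 and the transcription factor Zeb2 by 3.54 ± 0.16 (adjusted p = 0.00844, 0.00866 and 0.00141). Vim was bright in both kinds of cell, at 8.24 and 8.08 in MDSC and 6.29 and 5.82 in ESC.

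Extracellular matrix genes were higher in MDSC: 36 of 42 fibrillar collagen and matrix genes rose and none fell, at a median of 4.33, against 22.9% of all features higher. Col1a1, a chain of collagen type I, was read at 8.04 and 8.17 in MDSC and at 3.99 and 3.69 in ESC (difference 4.27 ± 0.19, adjusted p = 0.00138). Lox, which crosslinks collagen, rose by 6.81 ± 0.28 and Postn by 6.63 ± 0.34 (adjusted p = 0.00122 and 0.0016). Dcn, a small proteoglycan, was read at 7.20 and 8.27 in MDSC but at 2.96 and -2.05 in ESC, and its adjusted p of 0.0326 became 0.0844 and 0.118 without isolation 1 and 2. The 6 genes not called included Lum (4.85 ± 2.87, adjusted p = 0.219), Mgp (4.47 ± 1.53, adjusted p = 0.0716) and Col6a1 (4.50 ± 1.52, adjusted p = 0.07). In these the ESC arrays stood far apart: Lum was at 2.14 at passage 12 and, not well above background, at -5.96 at passage 15, and Mgp at 4.62 and 0.32. Mean levels of the matrix list were 1.32 and 0.30 on the ESC arrays, and those of fibroblast markers 0.10 and -1.40; whether feeder cells contribute to them was not tested.

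Fibroblast and fibro-adipogenic markers rose in 20 of 29 cases and fell in 1, at a median of 3.53, with 12 rises without isolation 1. Pdgfrb, a receptor of mural and fibroblastic cells, was read at 4.66 and 4.46 in MDSC and at -0.58 and -1.03 in ESC (difference 5.37 ± 0.23, adjusted p = 0.00131). Pdgfra, which marks fibro-adipogenic progenitors, was at 4.06 and 3.26 against 1.01 and -3.11 and was not called (adjusted p = 0.0585). Mfap5, a microfibril protein, rose by 6.33 ± 0.40 (adjusted p = 0.00202), and Dpp4, a membrane peptidase, fell by 2.40 (adjusted p = 0.0177, and 0.0628 and 0.0533 without isolation 1 and the passage 15 array). Of 20 tendon, bone and cartilage genes 12 rose and 2 fell (1 without either ESC array), at a median of 3.44 (3.31 with bounds), led by Thbs4 and Fmod, a collagen-binding proteoglycan (9.41 ± 0.38, adjusted p = 0.00118). Basement membrane genes were mixed, with 10 rises (4 without isolation 2) and 8 falls (5 without the passage 15 array) among 24 and a median of 0.28. These counts stand against 22.9% of all features higher and 30.7% lower. Laminin alpha chains went both ways. Lama5 differed by -3.84 ± 0.23 and Lama1 by -3.67 ± 0.28 (adjusted p = 0.00188 and 0.00256). Lama2 of the muscle basal lamina rose by 5.67 ± 0.29 (adjusted p = 0.0016).

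Of 28 myogenic regulators and satellite cell genes, 18 rose and 5 fell (3 without isolation 2), with a median of 1.73 (1.66 with bounds). Among all features the shares were 22.9% higher and 30.7% lower. Myog, which drives myoblast differentiation, was read at -0.16 and -1.75 in MDSC, was below background in ESC and was at least 17.6-fold higher (adjusted p = 0.00694). Myod1 was dim, at -3.48 and -3.94, and at least 2.60-fold higher (adjusted p = 0.00773, and 0.104 in the 6-array fit). The satellite cell factors Pax7 and Myf5 were not tested, with Pax7 at -4.84 and -6.40 and Myf5 at -6.74 and -6.37 in MDSC. Of the other markers listed for muscle progenitors, Cdh15, Des and Itga7 were above background on all arrays and were not called (0.16 ± 0.34, 0.61 ± 0.23 and 1.42 ± 0.47, adjusted p = 0.698, 0.0891 and 0.0654). Of the 7 muscle progenitor markers, Myog and Myod1 were thus higher in MDSC and the other 5 were not called or not tested. Eya2, a transcriptional cofactor in myogenesis, rose by 5.85 ± 0.58, and Vcam1 by 4.69 ± 0.57 (adjusted p = 0.00396 and 0.0059), while the calcitonin receptor Calcr was at least 6.08-fold lower in MDSC and Msc, or musculin, at least 3.27-fold lower (adjusted p = 0.00118 and 0.0099).

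Of 37 genes of muscle differentiation 21 rose and 4 fell, at a median of 1.95 (1.83 with bounds), against 22.9% of all features higher and 30.7% lower. Myl1, a fast myosin light chain, was read at 3.47 and 2.99 in MDSC and at -4.19 and -4.51 in ESC (difference 7.58 ± 0.26, adjusted p = 0.00104). The heavy chain Myh1 and the caveolin Cav3 were at least 34.0-fold and 32.3-fold higher (adjusted p = 0.00175 and 0.00192). Mymx, a fusion peptide of myoblasts, went the other way, at -0.15 and -1.09 in MDSC and 4.79 and 4.66 in ESC (difference -5.34 ± 0.37, adjusted p = 0.00231). On the other slide the wild-type isolations had mean levels of this list of 2.51 and -1.11, against -1.11 and -1.16 in the Mstn-null isolations.

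Lists for other cell types of muscle gave mixed counts, to be read against 22.9% of all features higher and 30.7% lower. Among pericytes and smooth muscle cells, 11 of 17 marker genes rose (6 and 4 without isolation 1 and 2) and 2 fell (1 without either isolation), with a median of 2.75 (1.91 with bounds), led by Actg2 (5.18 ± 0.87, adjusted p = 0.0124, and 0.0567 without isolation 2) and Myh11 (at least 17.4-fold, adjusted p = 0.00503). Of 19 fat cell genes 11 rose and 2 fell (1 without isolation 2 or either ESC array), at a median of 1.88, led by the lipase Lpl (6.50 ± 0.36, adjusted p = 0.00168) and the fatty acid carrier Cd36 (at least 35.4-fold, adjusted p = 0.00324). Endothelial genes were lower in 8 of 16 cases (5 without isolation 2) and higher in 2, at a median of -1.96 (-1.28 with bounds); Flt1 fell by 3.84, whereas the bound for Cdh5 was at least 6.06-fold toward MDSC (adjusted p = 0.00271 and 0.00878). Schwann and glial genes rose in 4 and fell in 3 of 13, with a median of 0.50, and for S100b, a calcium-binding protein, the bound was at least 17.0-fold toward MDSC (adjusted p = 0.00316).

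**Figure D3:**
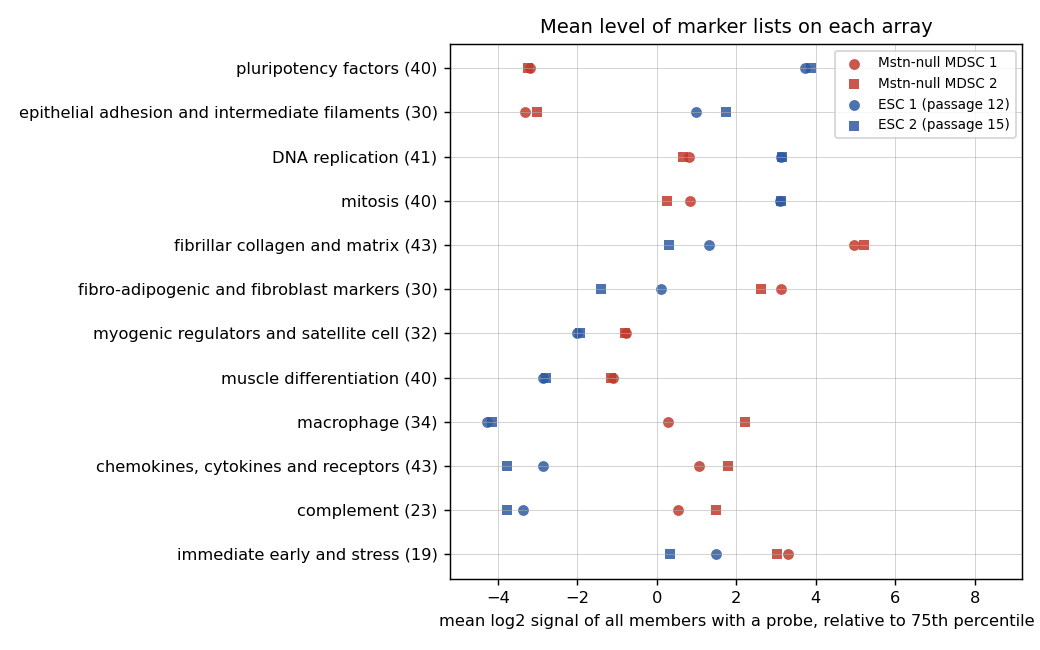
Mean log2 signal, relative to the 75th percentile, of all members with a probe of 12 gene lists on each of the 4 arrays; the number of members stands in brackets. Macrophage markers lie at 0.27 and 2.22 in the Mstn-null MDSC isolations and at -4.28 and -4.15 in the ESC, and fibroblast markers at 0.10 and -1.40 in the ESC passages.

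Macrophage genes were among the largest differences. Of 31 tested, 28 rose and none fell, with a median of 5.77 (5.56 with bounds), and 9 were above background in MDSC alone. Over all features, 22.9% were higher, 30.7% lower and 2.31% above background in MDSC alone. Lyz2, the myeloid lysozyme, was read at 3.42 and 5.59 in MDSC and at -7.46 and -4.50 in ESC (difference 10.48 ± 1.30, adjusted p = 0.00607), where it was well above background on only 1 of the 2 arrays. Tyrobp, an adaptor of myeloid receptors, rose by 9.02 ± 0.81 and Csf1r, the receptor of the macrophage growth factor, by 4.29 ± 0.66 (adjusted p = 0.00343 and 0.0103). Ptprc, the pan-leukocyte CD45, was at least 23.5-fold higher (adjusted p = 0.00748), at -1.39 in isolation 1 and 0.32 in isolation 2. Of 34 macrophage genes with a probe, 30 and 31 were above background in the MDSC isolations against 20 and 19 in the ESC passages. Mean levels of the list were 0.27 and 2.22 in Mstn-null MDSC and -1.20 and -2.68 in wild-type MDSC on the other slide. Markers of other blood cells did not follow: 2 rose (0 without either isolation) and 4 fell (2 without isolation 2) among 15, at a median of 0.26.

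Innate immune genes were also higher in MDSC, against 22.9% of all features higher and 30.7% lower. Of 35 chemokines, cytokines and receptors, 30 rose and 1 fell, with a median of 5.96 (4.95 with bounds). Ccl6 was read at 3.58 and 5.53 in MDSC, and Tnf, at least 130-fold higher (adjusted p = 0.00632), at 0.68 and 3.19, both higher in isolation 2. Cxcl14, a chemokine of stromal and epithelial cells, was at 6.57 and 7.59 in MDSC and at -0.62 and -0.80 in ESC (adjusted p = 0.00157). Cxcl1 had a difference of 7.74 ± 2.55 that was not called (adjusted p = 0.0654), with ESC at 1.87 at passage 12 and, not well above background, at -5.37 at passage 15. The single fall was that of Lifr, the receptor subunit for the factor that keeps mouse ESC undifferentiated (-1.71 ± 0.34, adjusted p = 0.019, and 0.0571 and 0.0901 without isolation 1 and 2). The shared receptor subunit Il6st rose by 3.50 ± 0.20 (adjusted p = 0.00179). The part of macrophage RNA in these differences was not tested.

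Of 21 complement genes 19 rose and none fell (median 4.92, or 4.87 with bounds), and of 22 Toll-like receptor and sensing genes 19 rose and none fell (median 3.35, or 3.07 with bounds). These counts, and those of the lysosomal, osteoclast and MHC lists that follow, stand against 22.9% of all features higher and 30.7% lower. Cfb, a serine protease of the alternative complement pathway, was at least 80.4-fold higher (adjusted p = 0.00117), at 1.55 and 0.93 in MDSC, and so was higher in isolation 1. C5ar1, a myeloid receptor, was at least 71.7-fold and the lectin receptor Clec4e at least 96.1-fold higher (adjusted p = 0.00404 and 0.00253). Of 26 lysosomal genes 19 rose and 2 fell (0 without either isolation, 1 without either ESC array), at a median of 2.13, led by Ctss (9.12 ± 0.89) and Ctsh (6.34 ± 0.93), cathepsins with adjusted p of 0.0039 and 0.00913. Of 17 osteoclast and fusion genes 9 rose (5 without isolation 2) and 2 fell, with a median of 0.93. MHC class II genes rose in 4 of 11 cases and none fell, at a median of 1.09 (0.90 with bounds). These calls depended on single arrays, with 2 rises and 2 falls without isolation 2, 1 rise and 2 falls without passage 12, and 1 rise without passage 15. Of 36 MHC class I and interferon genes 20 rose and 2 fell, at a median of 1.44, but 8 rises passed without isolation 2, which was the higher MDSC array in 33 of the 36. The interferon-inducible membrane protein Ifitm1 fell by 6.23 (adjusted p = 0.00436), from 5.53 and 5.41 in ESC.

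**Figure D4:**
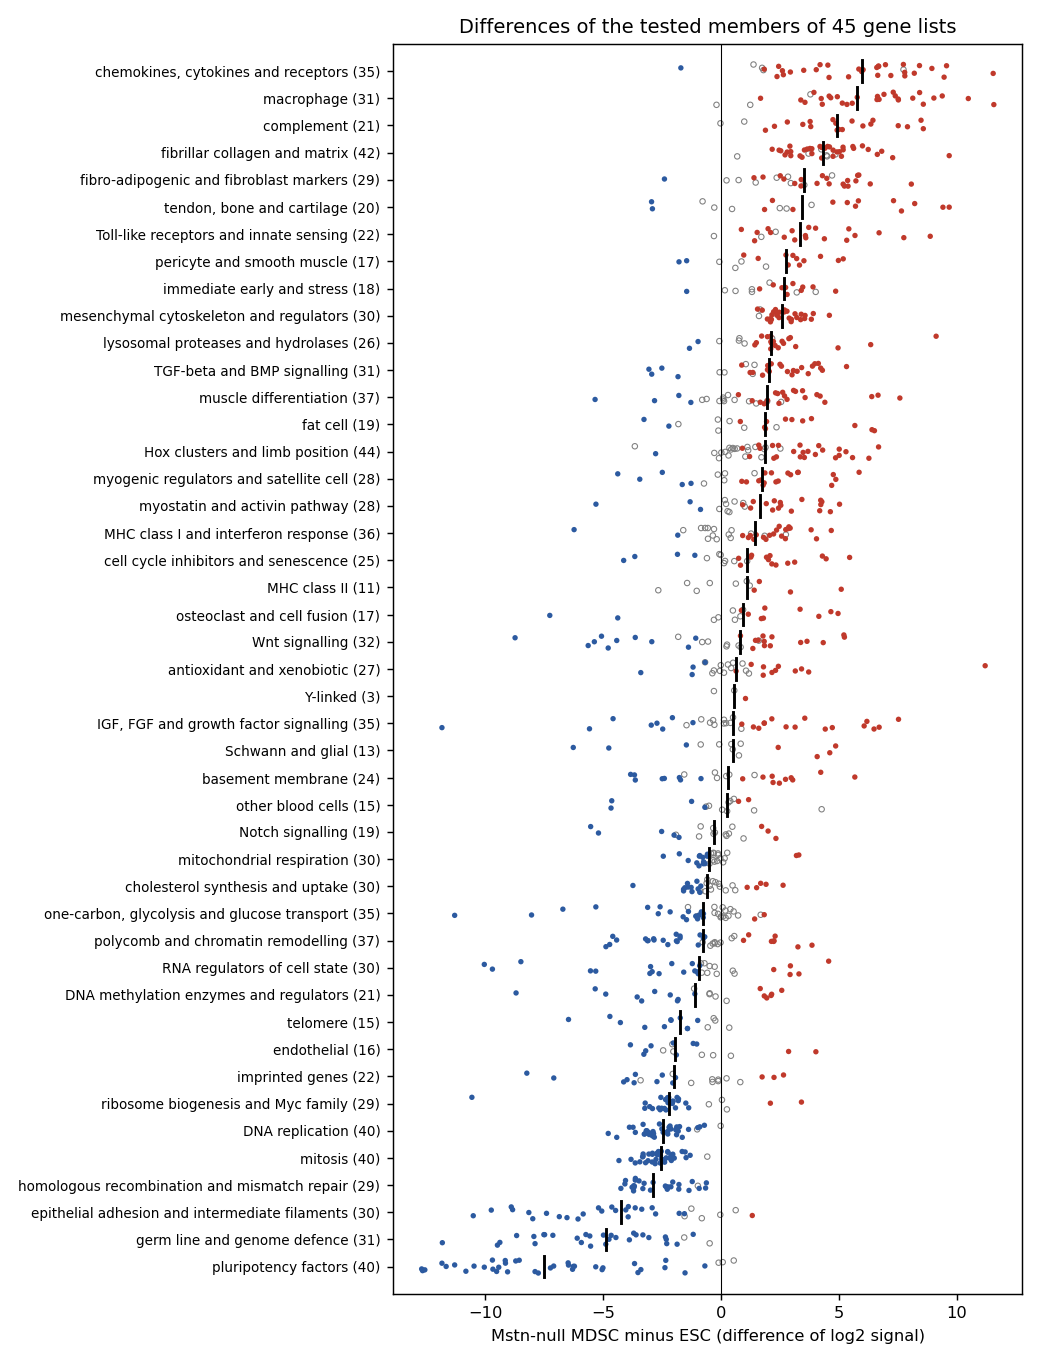
Difference of log2 signal between Mstn-null MDSC and ESC for each tested member of 45 gene lists, ordered by the list's median (black bar); red and blue points passed an adjusted p of 0.05, open points did not, and the number tested stands in brackets. Medians run from -7.49 for pluripotency factors to 5.96 for chemokines, cytokines and receptors.

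Genes of position along the body axis were higher in MDSC, with 24 of 44 Hox and limb genes rising and 1 falling (3 and 2 without the passage 12 and 15 arrays) and a median of 1.86 (1.68 with bounds). The other 19 were not called, and the shares over all features were 22.9% higher and 30.7% lower. Hoxc10 was read at 0.59 and 0.67 in MDSC and was at least 47.7-fold higher than in ESC, where it was below background (adjusted p = 0.00105). Hoxc11 was at least 31.4-fold and Shox2, a regulator of the proximal limb skeleton, at least 29.4-fold higher (adjusted p = 0.000938 and 0.00301). Pitx1, which specifies the hindlimb, was at 2.43 and 2.41 in MDSC and at -2.03 and -2.84 in ESC (difference 4.86 ± 0.32, adjusted p = 0.00218). Tbx5, a forelimb gene, was read at -1.43 and -2.41 against -2.94 and -4.67 and was not called (adjusted p = 0.0908). The single fall was that of Hoxd13, the most posterior gene of its cluster (-2.78 ± 0.36, adjusted p = 0.00663).

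In the myostatin and activin pathway 17 of 28 genes rose and 3 fell (1 without isolation 1, 1 without isolation 2), with a median of 1.64. As a background, 22.9% of all features were higher and 30.7% lower. The type II receptors for myostatin and activin differed in opposite directions: Acvr2b was read at -1.05 and -1.39 in MDSC and at 4.21 and 3.96 in ESC (difference -5.31 ± 0.22, adjusted p = 0.00122), and Acvr2a at 0.41 and 0.26 against -2.17 and -2.23 (difference 2.53 ± 0.17, adjusted p = 0.00213). Both differences exceeded the gaps between arrays of a group by far. Antagonists were higher in MDSC: Fstl3 rose by 4.23 ± 0.44 and Fst by 2.51 ± 0.59 (adjusted p = 0.00443 and 0.0284), the latter with 0.0824 and 0.109 without isolation 1 and 2. Among ligands Gdf11, the closest relative of myostatin, rose by 2.44 ± 0.16 and the activin subunit Inhba by 2.98 ± 0.33 (adjusted p = 0.00218 and 0.0049). Tgfbr2, the type II receptor of TGF-beta, rose by 4.63 ± 0.55, and the signal transducer Smad3 by 1.92 ± 0.22 (adjusted p = 0.0055 and 0.0054).

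Of 31 further TGF-beta and BMP genes 22 rose and 4 fell (2 without the passage 15 array), at a median of 2.04. Ltbp2, a microfibril protein of the latent TGF-beta binding family, rose by 5.32 ± 0.57 and the BMP antagonist Grem1 by 3.07 ± 0.22 (adjusted p = 0.00454 and 0.00241), while Ltbp4 differed by -3.06 ± 0.21 (adjusted p = 0.0022). Growth factor genes were divided: of 35 IGF, FGF and related genes 16 rose and 8 fell, with a median of 0.51. Of all features, 22.9% were higher and 30.7% lower. Igf1, a growth factor of muscle repair, was read at 3.00 and 3.95 in MDSC and at -3.52 and -4.58 in ESC (adjusted p = 0.00233), and Hgf, which activates satellite cells, rose by 6.70 ± 1.01 (adjusted p = 0.00952). Fgf4, an autocrine factor of ESC, was at 5.15 and 5.31 in ESC and below background in MDSC. Igf2 differed by -2.72 ± 0.41 (adjusted p = 0.00944), opposite to Igf1.

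Of 32 Wnt genes 14 rose (9 without isolation 2) and 10 fell, at a median of 0.78. Sp5 (at least 122-fold), Lef1 (27.2-fold) and Axin2 (10.8-fold) were lower in MDSC (adjusted p = 0.00206, 0.00106 and 0.00363). The secreted antagonist Sfrp1 and the receptor Lgr5 rose by 5.23 ± 0.41 and 5.21 ± 0.63 (adjusted p = 0.00272 and 0.00571). The Wnt counts, and those of the lists that follow, stand against 22.9% of all features higher and 30.7% lower. Of 19 Notch genes 5 fell and 3 rose (1 without isolation 1, 1 without isolation 2), with a median of -0.32; the ligand Dll1 was at least 20.4-fold lower in MDSC (adjusted p = 0.00779). Immediate early and stress genes rose in 10 of 18 cases and fell in 1 (0 without isolation 1, isolation 2 or passage 15), at a median of 2.66. Fos, the AP-1 subunit, was at 5.31 and 5.17 in MDSC but at 3.32 and -0.86 in ESC and was not called (adjusted p = 0.085). Of 3 tested Y-linked genes Ddx3y was higher in MDSC (1.00 ± 0.18, adjusted p = 0.0155, and 0.0657 and 0.102 without isolation 1 and 2), and both kinds of cell are labelled male.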

How the data were processed

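Untreated cells gave total RNA that was labelled with Cy3 for single-colour Agilent mouse arrays. The deposited files hold spot intensities. The authors extracted them with Feature Extraction, whose version is 10.7.1.1 in the headers and 9.1 in the submitters' processing notes. Per the file headers, background correction was part of the processed intensity, and mm9 was the build of the array's design. Here, log2 was taken of the deposited processed intensity, and the 75th percentile of each array's spots other than controls (550.0 to 646.7 intensity units on these 4 arrays) was subtracted. Spots with an outlier flag (116 to 122 an array) were removed, the remaining spots of each probe were averaged, and 20 probes without a value were dropped. A RefSeq table of GRCm38.p6 gave 1 symbol for 26413 of 55681 probes, and the other 29268 kept the name in the file.

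Each gene took the probe of highest mean signal on the 4 arrays. Among 285 list or named genes with several tested probes, Fgfr4, Smarcc1 and Tpm1 had probes called in both directions. Testing required a signal well above background on both arrays of one group or of both. limma 3.58.1 in R 4.3.3 fitted the group means (lmFit and eBayes, two-sided, 2 residual and 2.06 prior degrees of freedom). P-values were adjusted by Benjamini-Hochberg over 24377 tested features, with a threshold of 0.05. Errors are standard errors of the difference, and 2 arrays per group limit the precision. A trial fit to made-up values, also with 2 arrays per group, missed the smaller changes put in and recovered larger ones only in part, without false calls. The share of changed genes was far smaller there than in these data. The trial therefore does not measure how many real differences were found or missed here. An "at least" fold is given for a gene above background on both arrays of one group and neither of the other. It compares the bright group's mean with a floor averaged over the dim arrays, each array's floor being its lowest signal called well above background, or the gene's own signal if that is higher. The adjusted p beside such a fold comes from the fit to the values as read, without a floor, and so does not test the bound.

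The compared groups and 45 gene lists (1270 genes, 1246 with a probe, 1164 tested) were chosen with earlier results of these data known. Lists share members, so their counts are not independent, and 3 symbols were updated to current names once the files were read. Genes named by rule were the 15 largest rises and falls above background on all 4 arrays and the 10 largest bounds each way, among called genes whose groups did not overlap, without provisional names. List examples were up to 2 called rises and falls of the largest difference, and others chosen after their values were seen. Some genes that these rules name are not reported here. Promoter windows were RefSeq's, GRCm38.p6. Alternatives were quantile normalization, median centring, normexp on median signals and background (offset 50), no filter, all 4 arrays above background, outlier flags kept, the mean over probes, 1 fit over all 6 arrays, a variance trend with robust fit, a 2-fold minimum, and leaving out each array.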

Additional observations from a re-analysis of the deposited data

How the results depend on the processing

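The counts of calls stayed within 1.5 times of 5592 and 7472 under every alternative but 2: without Mstn-null MDSC isolation 1 there were 3210 higher and 4431 lower calls, and without isolation 2 there were 2916 and 3811. Over the 4 fits that leave out an array the counts ranged from 2916 to 5029 and from 3811 to 6675. Apart from those 2, they ranged from 4482 to 6294 higher and from 5291 to 7792 lower. Leaving out an array keeps 1 in its group, which is assumed to vary like the other group, and leaves 1 residual degree of freedom; the cause of the drop was otherwise not tested. Of 45 list medians, those that moved by more than the spread between replicates follow, and the cause was not tested. With median centring they were -7.27 for pluripotency, -0.56 for chromatin, -2.26 for DNA replication, 1.33 for cell cycle inhibitors, -2.00 for ribosome, -0.53 for one-carbon, 2.80 for mesenchymal, 2.11 for fat cell, 1.86 for myostatin, 0.86 for antioxidant, -0.71 for RNA regulators, 0.78 for Y-linked and -0.28 for respiration. With normexp they were -5.93 for pluripotency, -3.05 for germ line, -2.12 for recombination, -2.09 for ribosome, -3.26 for epithelial, 2.49 for tendon, 1.59 for fat cell, 1.31 for pericyte, -0.92 for endothelial, 1.13 for myogenic, 1.18 for muscle, 1.89 for Toll-like receptors, 0.93 for Hox, 0.97 for myostatin, 1.64 for TGF-beta and -1.37 for imprinted. With all 4 arrays above background they were -5.01 for pluripotency, -2.71 for germ line, -0.80 for DNA methylation, -2.07 for ribosome, -2.78 for epithelial, 1.74 for pericyte, 4.04 for chemokines, 2.56 for Toll-like receptors, 1.25 for myostatin, 1.40 for Wnt and -0.37 for imprinted. With the mean over probes they were -7.27 for pluripotency, -2.06 for ribosome, 1.91 for pericyte, 0.16 for growth factors and -0.08 for Y-linked. With quantile normalization they were -2.05 for ribosome, 0.81 for antioxidant and -0.37 for respiration. Without the filter they were -2.14 for ribosome, 2.49 for tendon, 1.81 for pericyte, 1.37 for myostatin, -1.61 for imprinted and 0.10 for Y-linked. With each array left out in turn they ranged from -7.81 to -7.24 for pluripotency, -1.28 to -0.70 for DNA methylation, -1.08 to -0.69 for chromatin, -3.25 to -2.69 for recombination, -2.36 to -2.07 for ribosome, 3.17 to 4.62 for fibroblast, 2.32 to 4.19 for tendon, 1.61 to 2.24 for fat cell, 2.00 to 3.07 for pericyte, -0.15 to 0.34 for other blood cells, 0.90 to 1.44 for osteoclast, 0.51 to 0.91 for growth factors, 0.57 to 0.71 for antioxidant, -1.07 to -0.94 for RNA regulators and -0.07 to 1.10 for Y-linked. Beyond the spread between replicates, medians changed sign for other blood cells (-0.15 without isolation 2) and the 3 Y-linked genes. Genes of the text or lists that were called under one setting or the other changed sign with the mean over probes for Smarcc1 (-0.47), Fdft1 (0.58), Col4a6 (-1.15), Fgfr4 (-1.05), Tcf7l2 (1.01), Terf2 (-0.80) and Cd84 (3.19), and with normexp for Cd84 (2.87). Called members of each list without each array were counted after the data were seen. No paired analysis was possible because the ESC arrays carry passage numbers, which match no isolation number. Signal over background limits the dim genes: 20175 of 24377 tested features were well above background on all 4 arrays.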

Other observations

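Zinc finger genes with a Zfp symbol, a group chosen after values were seen, leaned toward the ESC. Of 342 tested, 153 were lower and 43 higher in Mstn-null MDSC, with a median of -0.66, against 30.7% lower and 22.9% higher over all features. Many of these genes are near-identical copies in clusters, and their probes may read several of them.

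The array also carries probes for 4607 intergenic noncoding regions named by their mm9 position, of which 3057 were tested. Of these, 497 were higher and 564 lower in Mstn-null MDSC (34.7% called, against 53.6% of all features), with a median of 0.07, and 321 were above background in ESC alone against 43 in MDSC alone. All tested features leaned the same way, with 8.55% above background in ESC alone and 2.31% in MDSC alone. The largest bound for ESC belonged to chr8:67552315-67561235 on the reverse strand, read at 3.70 and 4.48 in ESC and at least 514-fold lower in MDSC (limma adjusted p = 0.000938). Regions chr9:114416254-114416844 and chr9:114412295-114418384, which overlap, were at least 434-fold and 398-fold lower (adjusted p = 0.000803 and 0.00092). The largest bound for MDSC belonged to chr8:85609155-85615170 on the forward strand, at 0.58 and 1.20 in MDSC and at least 63.1-fold higher (adjusted p = 0.00226). The overlapping regions chr6:31170350-31287353 and chr6:31233512-31241062 rose by 4.30 ± 0.52 and 4.22 ± 0.49 (adjusted p = 0.00579 and 0.00536), and chr1:93812836-93816128 rose by 4.46 ± 0.28 (adjusted p = 0.00206). No gene is named for these regions, since no annotation of mm9 was used here.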
